A study of Mus musculus with 10 samples.

Results

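The 10 mouse genes Zbed6, Cbl, Uhmk1, Pdpr, Clcn5, Uprt, Xrn1, Lmbrd2, Mgat5 and Xylt1 were lower in macrophages given either of 2 ligands of the receptor TLR2 than in untreated macrophages. They were selected on their log2 fold change against control, as the largest falls, so their levels against control are a description and carry no test. They are 10 of 11617 listed genes, and all 10 were among the 11407 genes tested, for which the average over libraries reached 1 CPM (reads per 1e6 of a library's scaled size). Their working name was long transcripts, which the annotation bears out for 7 of them. Zbed6, Pdpr and Uprt lay below the 90th percentile of longest annotated transcript, and Uprt was shorter than the median gene.

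Macrophages were derived from bone marrow of C57BL/6 mice. In all groups the medium held 10% fetal bovine serum and 50 ng/ml of GM-CSF, which promotes myeloid growth. The 5 groups of 2 libraries each were untreated control (no time label), AmTARS for 1 h, AmTARS for 3 h, Pam3CSK4 for 1 h and Pam3CSK4 for 3 h. Pam3CSK4, a synthetic bacterial lipopeptide that activates TLR2, was used at 10 ng/ml. AmTARS, by its name a threonyl-tRNA synthetase of Akkermansia muciniphila, was used at 0.5 with the unit written as mm, so the doses cannot be related. The labels give the mice as 6 weeks old in one field and 7 weeks in another. They do not tell whether replicate libraries stem from separate mice or cultures, so p-values measure only the spread between these libraries, which may be technical. Library depth, as reads recovered over listed genes, was 27398791 to 37559810, and each of the 10 genes had 46 to 1011 reads per library. All 8 macrophage markers were listed, and their summed level was 49274 to 50987 CPM in control and 50533 to 53970 CPM in the treated libraries. Of the neutrophil markers 7 of 8 were listed, with a summed level of 1238 to 1320 CPM in control and 1635 to 2119 CPM in the treated libraries. None of 7 lymphocyte and 3 erythroid markers was listed, 2 of 6 dendritic cell markers were (59.4 to 69.1 CPM over all libraries), and 4 of 4 stromal markers were (1404 to 1476 CPM in control, 1212 to 1423 CPM treated). The part of other cell types in the results was not tested, and in bulk RNA fewer cells of a type and less RNA per cell cannot be told apart.

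The 10 genes share no single pathway. Xrn1 encodes the exoribonuclease that degrades decapped messenger RNA from its 5′ end, Uhmk1 a kinase of splicing factors, and Zbed6 a transcription factor derived from a DNA transposon that represses Igf2. Cbl encodes a ubiquitin ligase that ends signalling of tyrosine kinases and their receptors. Mgat5 and Xylt1 encode glycosyltransferases, Clcn5 an endosomal chloride-proton exchanger, Pdpr a regulatory subunit of pyruvate dehydrogenase phosphatase, Uprt a relative of uracil phosphoribosyltransferases and Lmbrd2 a membrane protein of the LMBR1 family. In myeloid cells, messenger RNAs with AU-rich elements in the 3′ UTR are known to be bound by proteins such as tristetraprolin, which recruit the deadenylation and decay machinery that ends in decapping and Xrn1.

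In GENCODE M21 (build GRCm38, the same assembly as the mm10 named in the processing notes), the longest transcript of the 10 genes ran from 2304 nt for Uprt to 11372 nt for Cbl, with a median of 8244.5 nt against 3433 nt over 11109 protein-coding genes tested. The 3′ UTR made up most of it in Cbl, Uhmk1, Clcn5, Uprt, Lmbrd2, Mgat5 and Xylt1, and less than the rest of the transcript in Zbed6, Pdpr and Xrn1. The 3′ UTR of the longest transcript ran from 776 nt in Zbed6 to 8469 nt in Cbl, with a median of 5689 nt against 1140 nt. Cbl, Uhmk1, Clcn5, Xrn1, Lmbrd2, Mgat5 and Xylt1 were the 7 above the 90th percentile of both measures (6764 nt for the transcript, 3657 nt for the 3′ UTR). Coding length had a median of 2439 nt against 1365 nt, and GC content of 46.5% against 50.8%. Zbed6 is a gene of 1 exon, and Xrn1 had 42 exons in the transcript used. By the median over a gene's coding transcripts, 5 of the 10 exceeded the 90th percentile, and Cbl stood at only 2809 nt, since most of its 11 annotated transcripts are short.

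The AU-rich nonamer TTATTTATT, searched on the sense strand only, was present in the 3′ UTR of 7 of the 10 genes, namely Cbl, Uhmk1, Uprt, Xrn1, Lmbrd2, Mgat5 and Xylt1. Over all 11109 protein-coding genes 8.10% held it. Long 3′ UTRs hold more matches of any motif, and among 827 genes with a 3′ UTR of 4000 to 9000 nt, a range chosen after the values were seen, 22.1% held it. Of the 7 genes in that range, 6 did, all but Clcn5. The shorter motif ATTTA was in all 10, but also in 69.7% of all genes and 99.5% of those in the range. The first nonamer of each gene is printed because the choice of genes did not use it. It is in capitals with the bases around it, 5′ to 3′ on the transcript, and the coordinates are GRCm38. A match is a description and not evidence of binding.
Cbl, chr9:44143067-44143095, minus strand: tatactaatgTTATTTATTaatttttttc
Uhmk1, chr1:170198359-170198387, minus strand: aatgaaagtgTTATTTATTtatttttcct
Uprt, chrX:104506398-104506426, plus strand: tattggaagtTTATTTATTtgatttgatc
Xrn1, chr9:96055253-96055281, plus strand: actagaaaagTTATTTATTtgattaagcc
Lmbrd2, chr15:9201548-9201576, plus strand: agagattgtgTTATTTATTtatttttttt
Mgat5, chr1:127483127-127483155, plus strand: accaattaatTTATTTATTtgggaggatg
Xylt1, chr7:117671252-117671280, plus strand: tattttaattTTATTTATTtatttttaaa

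In Uhmk1, Lmbrd2 and Xylt1 the printed site runs on into a second, overlapping nonamer. The sites lay from 146 nt after the stop codon in Uprt to 8360 nt after it in Cbl, close to the end of the 8469 nt 3′ UTR of Cbl.

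The promoters of 9 of the 10 genes matched the RefSeq table by symbol, all but Xylt1. In the 250 bases before the start, on both strands, the GC box GGGCGG was in at least 1 promoter of all 9, against 64.8% of 8782 genes tested. The CCAAT box was in 3 of 9 (40.3% of genes), the TATA box TATAAA in 1 (7.44%) and an NF-kB consensus in 0 (26.3%). The 150 bases before the start of Uprt, Xrn1 and Mgat5 are printed as examples that lie wholly before the annotated gene, as those of Zbed6 and of 1 start each of Uhmk1 and Clcn5 also do. Uprt has the shortest transcript of the 10 and Xrn1 the most exons, and Uprt and Mgat5 hold both boxes, as does Uhmk1. Capitals mark GC boxes and CCAAT boxes on either strand, and the sequences are from RefSeq, build GRCm38.p6, 5′ to 3′ on the gene's strand.
Uprt, chrX:104482653-104482802, plus strand: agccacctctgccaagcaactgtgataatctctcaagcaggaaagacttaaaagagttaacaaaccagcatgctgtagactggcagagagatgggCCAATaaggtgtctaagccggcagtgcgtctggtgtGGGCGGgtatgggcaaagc
Xrn1, chr9:95954610-95954759, plus strand: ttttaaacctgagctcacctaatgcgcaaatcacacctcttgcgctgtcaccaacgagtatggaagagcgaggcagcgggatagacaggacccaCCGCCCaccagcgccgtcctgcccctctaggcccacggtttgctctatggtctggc
Mgat5, chr1:127204836-127204985, plus strand: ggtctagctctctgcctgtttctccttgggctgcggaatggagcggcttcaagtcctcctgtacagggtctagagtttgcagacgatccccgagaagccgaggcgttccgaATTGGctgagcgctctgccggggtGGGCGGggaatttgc

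Levels are given as CPM, taken back from the deposited log2(CPM + 1) values. Fold changes are differences of the log2(CPM + 1) values with the moderated standard error from limma (SE), which understates the change of genes at a few CPM. Compared per kb of longest transcript in control, the order ran from Uprt (2.85 ± 0.236, SD, n = 2) through Mgat5 (2.59 ± 0.271), Cbl (2.37 ± 0.245), Zbed6 (2.28 ± 0.108), Uhmk1 (1.92 ± 0.155), Xylt1 (1.68 ± 0.244), Pdpr (1.51 ± 0.125), Xrn1 (1.246 ± 0.145) and Lmbrd2 (1.10 ± 0.0842) to Clcn5 (0.885 ± 0.0428). Neighbours in this order overlapped in their control libraries, except Zbed6 over Uhmk1, Pdpr over Xrn1 and Lmbrd2 over Clcn5.

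Zbed6 (chromosome 1, 133655879 to 133660885) stood at 11.8 and 11.03 CPM in the control libraries. It stood at 4.58 and 4.24 CPM with AmTARS for 1 h, 4.42 and 5.81 CPM for 3 h, 3.67 and 4.12 CPM with Pam3CSK4 for 1 h, and 7.55 and 4.72 CPM for 3 h. All treated libraries lay below both control libraries, and those of Pam3CSK4 for 3 h were the most spread. The log2 fold change was -1.20 and -1.03 for AmTARS at 1 h and 3 h, and -1.34 and -0.83 for Pam3CSK4 (SE 0.14 each). Zbed6 lies wholly within Zc3h11a on the same strand, and 1 of 2 Zc3h11a gene models overlaps its exon, by 74 of 5007 bases. Zc3h11a, a gene of a zinc finger protein, stood near 100.5 CPM in control and at log2 fold changes of -0.17, -0.13, -0.14 and 0.01 in the same order (SE 0.05). The host gene thus did not share the size of the Zbed6 fall. Reads of unspliced Zc3h11a RNA over this stretch and reads of Zbed6 cannot be told apart. A further gene model, Gm38394, holds the whole Zbed6 exon and was not analysed here.

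Xrn1 (chromosome 9, 95954760 to 96057803) stood at 13.8 and 11.7 CPM in control. With AmTARS it stood at 5.81 and 6.46 CPM for 1 h and at 7.23 and 7.63 CPM for 3 h. Pam3CSK4 gave 5.07 and 5.54 CPM for 1 h and 7.61 and 7.52 CPM for 3 h. The treated libraries formed 2 levels by time, with each 3 h library above each 1 h library and all below control. Log2 fold changes were -0.95 and -0.70 for AmTARS and -1.12 and -0.68 for Pam3CSK4 at 1 h and 3 h (SE 0.09 each). Gene models on the opposite strand, not analysed here, share 604 and 184 exon bases with Xrn1, 425 with Uhmk1, 169 with Pdpr and 152 with Mgat5, the last with the protein-coding gene Tmem163. The strand setting of the counting is not given in the sources used here, so reads of these RNAs and of the genes cannot be told apart there.

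Uhmk1 (chromosome 1, 170193420 to 170215397) stood at 16.0 and 14.2 CPM in control. It stood at 6.48 and 7.21 CPM with AmTARS for 1 h, 7.15 and 9.61 CPM for 3 h, 4.85 and 6.94 CPM with Pam3CSK4 for 1 h, and 10.5 and 8.35 CPM for 3 h. Log2 fold changes were -1.04, -0.79, -1.24 and -0.63 in this order (SE 0.14 each). The library of Pam3CSK4 for 1 h replicate 1 was the lowest, as it was for 9 of the 10 genes.

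Cbl (chromosome 9, 44142976 to 44234049), the gene of highest CPM among the 10, stood at 28.9 and 24.9 CPM in control. It stood at 10.7 and 13.6 CPM with AmTARS for 1 h, 14.7 and 16.6 CPM for 3 h, 8.15 and 12.1 CPM with Pam3CSK4 for 1 h, and 19.8 and 16.3 CPM for 3 h. The mean with Pam3CSK4 was 37.7% of control at 1 h and 67.1% at 3 h, the widest gap between the Pam3CSK4 time points among the 10 genes. Log2 fold changes were -1.09 and -0.74 for AmTARS and -1.34 and -0.55 for Pam3CSK4 (SE 0.13 each).

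Mgat5 (chromosome 1, 127205015 to 127488336) makes the branched N-glycans that bind galectins, and Xylt1 (chromosome 7, 117380979 to 117673580) adds the first sugar of the glycosaminoglycan linker on proteoglycans. Mgat5 stood at 23.5 and 20.3 CPM in control, 11.1 and 11.3 CPM with AmTARS for 1 h, 10.3 and 14.3 CPM for 3 h, 8.67 and 9.92 CPM with Pam3CSK4 for 1 h, and 12.2 and 9.57 CPM for 3 h. Xylt1 stood at 16.7 and 13.6 CPM in control, 7.41 and 8.26 CPM with AmTARS for 1 h, 6.93 and 7.58 CPM for 3 h, 5.70 and 7.86 CPM with Pam3CSK4 for 1 h, and 7.29 and 5.30 CPM for 3 h. Xylt1 was alone among the 10 in having its lowest library in the Pam3CSK4 group at 3 h. Log2 fold changes for AmTARS at 1 h and 3 h and Pam3CSK4 at 1 h and 3 h were -0.90, -0.79, -1.15 and -0.95 for Mgat5 (SE 0.12). For Xylt1 they were -0.87, -0.96, -1.06 and -1.15 (SE 0.13).

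Clcn5 (chromosome X, 7153810 to 7319358) stood at 7.68 and 7.18 CPM in control, 3.15 and 3.19 CPM with AmTARS for 1 h, 4.10 and 5.11 CPM for 3 h, 2.93 and 3.45 CPM with Pam3CSK4 for 1 h, and 4.79 and 4.66 CPM for 3 h. As in Xrn1, the treated libraries parted by time with no overlap. Its log2 fold changes in that order were -1.02, -0.59, -1.01 and -0.56 (SE 0.11).

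Pdpr (chromosome 8, 111094630 to 111137074) stood at 7.91 and 7.04 CPM in control, 3.42 and 2.91 CPM with AmTARS for 1 h, 3.40 and 4.15 CPM for 3 h, 2.30 and 3.29 CPM with Pam3CSK4 for 1 h, and 3.73 and 3.27 CPM for 3 h, at log2 fold changes of -1.03, -0.83, -1.17 and -0.91 (SE 0.13). Uprt (chromosome X, 104482818 to 104507490) stood at 6.94 and 6.17 CPM in control, 3.15 and 2.69 CPM with AmTARS for 1 h, 2.40 and 3.27 CPM for 3 h, 1.70 and 2.28 CPM with Pam3CSK4 for 1 h, and 3.03 and 2.25 CPM for 3 h. All of its treated libraries lay well below control, and those of AmTARS at 1 h and 3 h overlapped. Its log2 fold changes were -0.95, -0.99, -1.34 and -1.06 (SE 0.14). Lmbrd2 (chromosome 15, 9140550 to 9202483), which runs across Skp2 on the opposite strand without shared exon bases, stood at 9.37 and 8.40 CPM in control, 4.10 and 4.49 CPM with AmTARS for 1 h, 3.56 and 5.35 CPM for 3 h, 2.67 and 3.29 CPM with Pam3CSK4 for 1 h, and 4.94 and 3.72 CPM for 3 h. Its log2 fold changes were -0.90, -0.88, -1.32 and -0.90 (SE 0.14). In these 3 genes the levels at 1 h and 3 h overlapped for AmTARS, and the lowest library was Pam3CSK4 for 1 h replicate 1. Skp2, the gene of an F-box protein of the cell cycle, stood at -0.09, -0.19, -0.31 and -0.46 (SE 0.10).

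**Figure D1:**
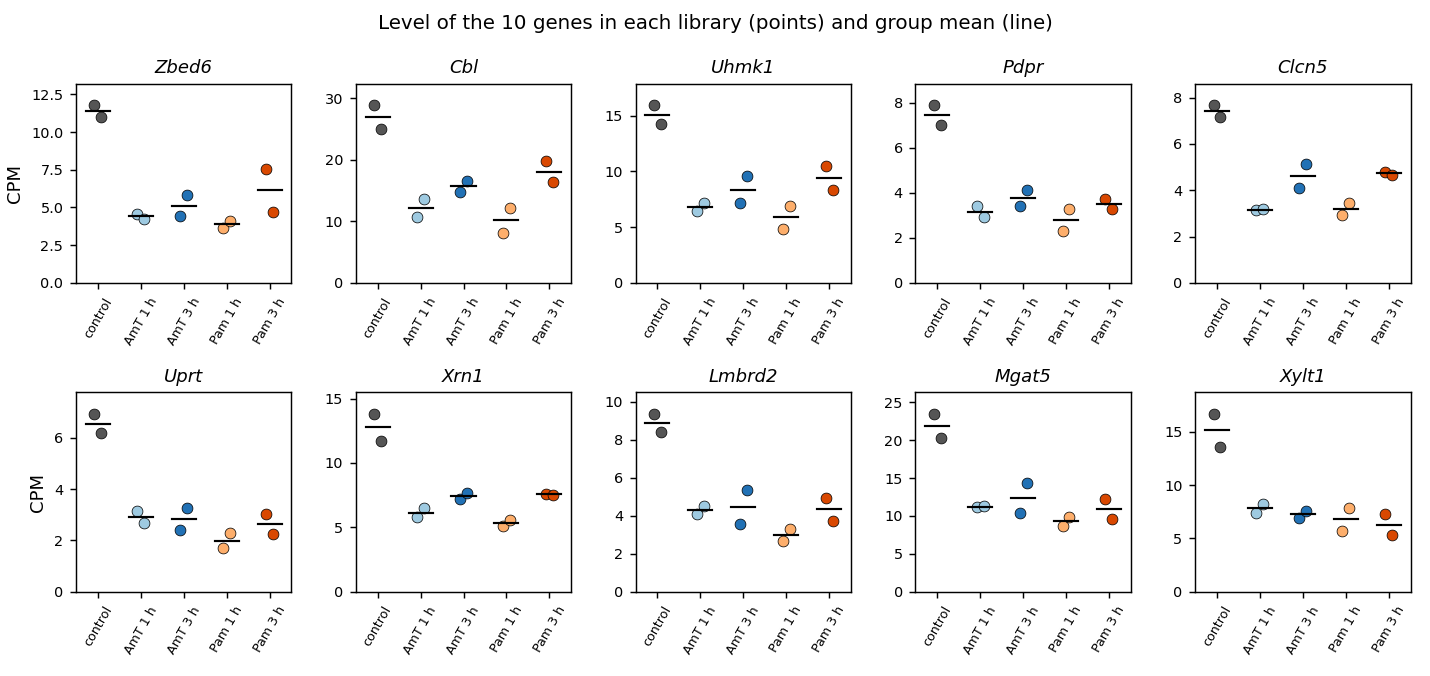
CPM (vertical axis from 0) of each gene in the 2 libraries of each of the 5 groups, drawn as points with the group mean as a line; AmT is AmTARS and Pam is Pam3CSK4. In each panel both control libraries sit above all 8 treated libraries.

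Against control, all 10 genes were lower by limma with Benjamini-Hochberg adjustment in the 4 treated groups, as were 19.8% of all genes tested with AmTARS at 1 h, 17.9% with AmTARS at 3 h, 24.8% with Pam3CSK4 at 1 h and 24.2% with Pam3CSK4 at 3 h. Both treated libraries lay below both control libraries for all 10 in each group, as for 35.6%, 35.4%, 38.2% and 38.5% of all genes. Since the ranking used these contrasts, nothing is read from the counts. The median log2 fold change of the 10 was -0.98, -0.81, -1.20 and -0.86, beside medians over all genes of -0.00, 0.00, -0.00 and -0.01. Called falls of at least 2-fold on the scale of CPM + 1 were rare over all genes, at 0.0526%, 0.0175%, 0.184% and 0.228%. They took in 5, 1, 10 and 2 of the 10 genes. In CPM the group means of the 10 were 38.7% to 51.7% of control with AmTARS at 1 h and 43.2% to 62.0% at 3 h. With Pam3CSK4 they were 30.4% to 44.7% at 1 h and 40.2% to 67.1% at 3 h. The 4 contrasts share the control libraries, so a high value there would lower a gene in all of them.

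The rank of the genes bears on how the choice was made and where it ends. Ranked were called genes with libraries apart whose higher group averaged 5 CPM or more, without Gm-number and Rik symbols. Genes that are not among the 10 also stood within the first 8 ranks of each contrast, so the choice did not follow rank alone. In that ranking the 10 genes filled 7 of the first 8 ranks with AmTARS at 1 h, 6 with AmTARS at 3 h, 7 with Pam3CSK4 at 1 h and 0 with Pam3CSK4 at 3 h. In that last group Xylt1 was at rank 10 and Cbl at rank 305 of 2425. At the edge with AmTARS at 1 h stood Xrn1 at -0.95 (rank 8) and Lmbrd2 at -0.90 (rank 9). With AmTARS at 3 h Mgat5 stood at -0.79 (rank 8), beside Hipk2, which is not among the 10, at -0.79 (rank 9). Pam3CSK4 at 1 h had Mgat5 at -1.15 and Xrn1 at -1.12, and Pam3CSK4 at 3 h had Enc1 at -1.17 and Arrdc3 at -1.16.

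Long transcripts in general were lower in the treated libraries. Across 11109 protein-coding genes (genes cannot count as replicates, and these contrasts share their controls) the rank correlation, Spearman's rho, of longest transcript with log2 fold change was -0.71 and -0.64 for AmTARS at 1 h and 3 h and -0.70 and -0.49 for Pam3CSK4. The correlation was also negative for coding length, at -0.63, -0.56, -0.60 and -0.46, for 3′ UTR length, at -0.49, -0.45, -0.51 and -0.32, and for exon number, at -0.45, -0.38, -0.43 and -0.30. The decile of genes with the longest transcripts had median log2 fold changes of -0.30, -0.26, -0.32 and -0.24, and the shortest decile of 0.26, 0.23, 0.33 and 0.23.

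The 10 genes lay well below this trend. They were chosen as the largest falls in these contrasts, so a low place beside genes of like length is a description and no test. Set against genes in the same decile of length, they differed from the decile's median by a median of -0.87 with AmTARS at 1 h, -0.68 at 3 h, -1.001 with Pam3CSK4 at 1 h and -0.64 at 3 h. By the longest transcript in place of the median one, these differences were -0.73, -0.58, -0.96 and -0.68. With either ligand at 1 h each of the 10 was within the lowest 1.06% of its decile by both measures, and with AmTARS at 3 h within the lowest 3.44%. With Pam3CSK4 at 3 h Cbl was the least extreme, at the 9.25th percentile of its decile by longest transcript.

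By longest transcript Uprt lay farther below the median of its decile than each of the other genes with AmTARS at 3 h (-1.08) and Pam3CSK4 at 1 h (-1.46) and 3 h (-1.14). With AmTARS at 1 h Zbed6 lay farther, at -1.08 beside -1.04 for Uprt, and in deciles of median transcript Cbl lay farthest there, at -1.04. The decile of Uprt by longest transcript was on the higher side in the treated libraries, with a median of 0.10 for AmTARS at 1 h, while Uprt stood at -0.95 and was the lowest of the 1134 genes there. In the same decile it was lowest also with AmTARS at 3 h and Pam3CSK4 at 1 h, and second lowest with Pam3CSK4 at 3 h. Zbed6, a single exon of 5007 nt, was the lowest of the 1135 genes of its decile with AmTARS at both times and Pam3CSK4 at 1 h.

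**Figure D2:**
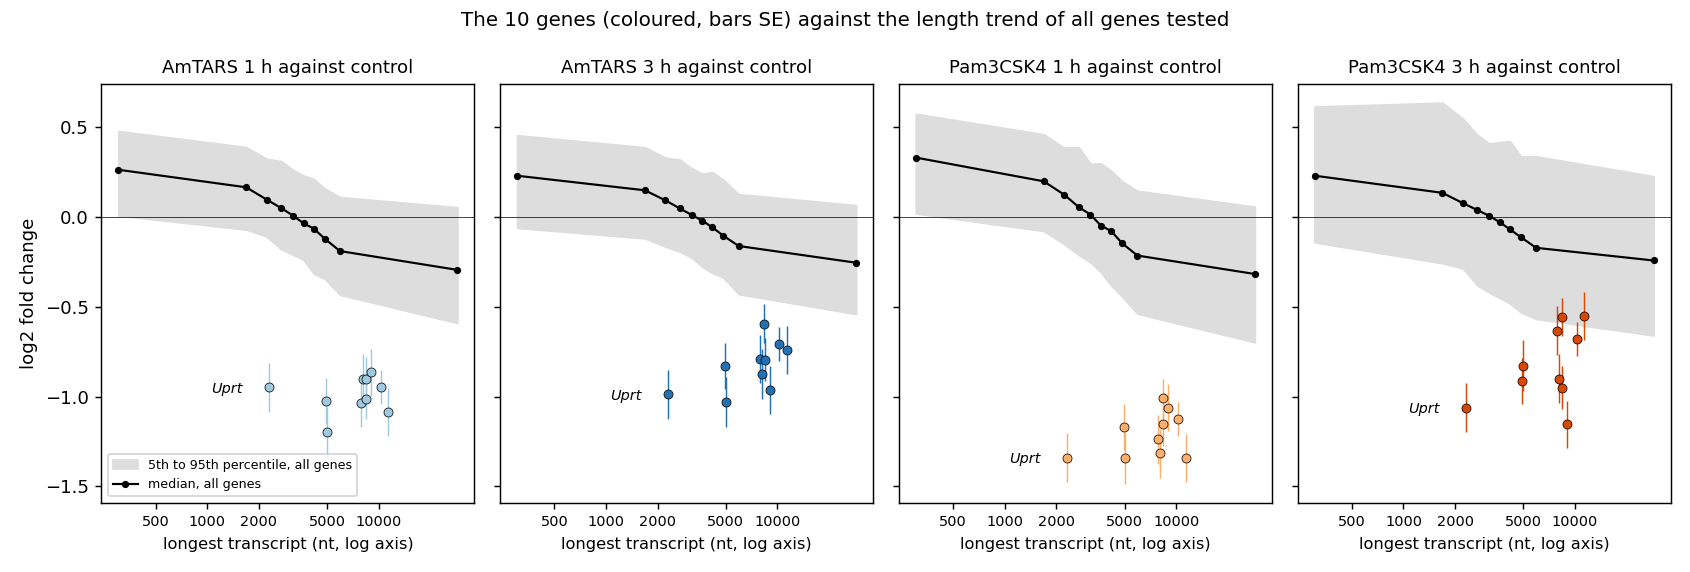
Log2 fold change against control (vertical axis) by longest transcript in nt (log axis) for the 4 treated groups; the line and band give the median and the 5th to 95th percentile of all genes tested in deciles of length, and coloured points with SE bars are the 10 genes. The genes sit below the 5th percentile of their own decile, except Uhmk1, Clcn5 and Cbl with Pam3CSK4 at 3 h (the drawn edge joins decile centres, which puts Uhmk1 just below it), and Uprt is the shortest.

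Each library was then corrected for the trend of its values with transcript length and GC content. The median over the 10 genes of the share of the fall that was left was 80.9% and 78.1% for AmTARS at 1 h and 3 h and 78.6% and 79.5% for Pam3CSK4. The lowest share was 61.7%, for Uhmk1 with Pam3CSK4 at 3 h, and the highest 98.9%, for Uprt in the same group. After this correction all 10 genes were lower in each treated group, as were 12.9%, 12.5%, 17.2% and 22.3% of 11346 genes. Since the same contrasts chose the 10 genes, nothing is read from this count. With a correction by longest transcript the median share left was 70.9%, 69.4%, 73.2% and 74.3%, and Cbl with Pam3CSK4 at 3 h kept the least, 50.1%, at -0.28. In that correction Uprt kept 104% to 108%.

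**Figure D3:**
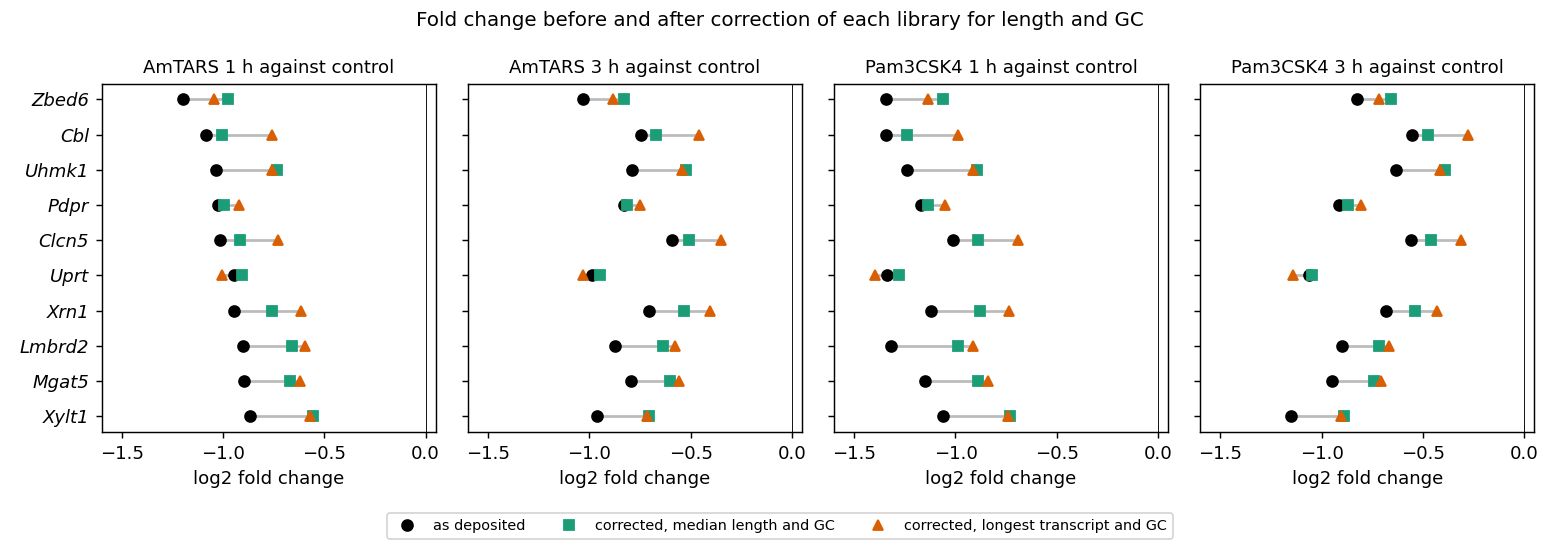
Log2 fold change against control (horizontal axis) of each gene in the 4 treated groups, as deposited (circles) and after correction by median transcript length and GC content (squares) or by longest transcript and GC content (triangles). The corrections move the genes towards 0, except Uprt under the longest transcript, and leave all of them below it.

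The length trend and the level of the 10 genes also moved together between libraries. When each library was taken relative to the mean over the 10 libraries, rho between median transcript length and value was 0.54 and 0.50 in the control libraries and -0.47 to 0.07 in the treated ones. The mean of the 10 genes on the same log2 scale was 0.86 and 0.69 in control and -0.58 to 0.08 in the treated libraries. Within a group too, the library with the lower rho had the lower mean of the 10 genes, in each of the 5 groups. The 10 genes were all lower in control replicate 3 than in replicate 2, in AmTARS 3 h replicate 1 than in replicate 3, in Pam3CSK4 1 h replicate 1 than in replicate 3, and in Pam3CSK4 3 h replicate 3 than in replicate 2. In AmTARS at 1 h, 7 of 10 were lower in replicate 2, and Zbed6, Pdpr and Uprt were not. Of the longest decile of genes 62.0% to 78.4% were lower in the same libraries, against 49.2% to 50.5% of all genes. Beyond the corrections above, the part of the length trend in the level of the 10 genes was not tested. Within-group medians of the difference for the 10 genes were -0.06 to -0.30, smaller than their medians against control.

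**Figure D4:**
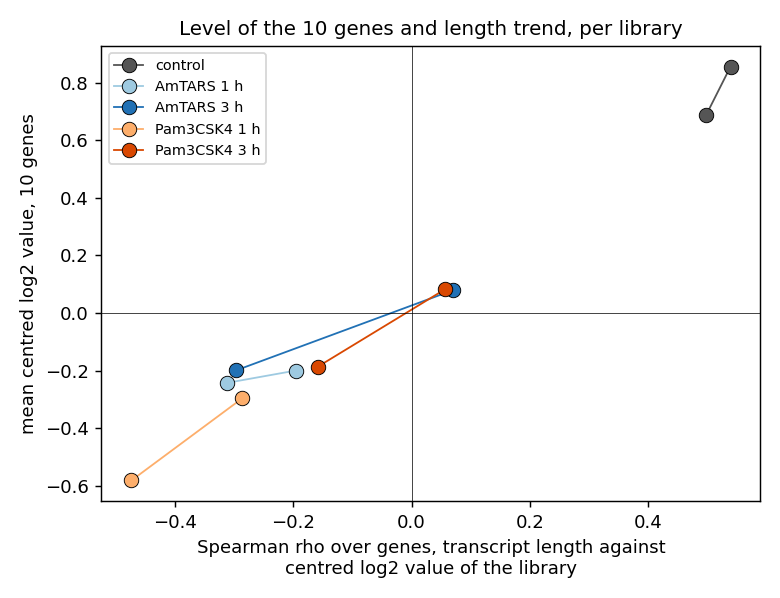
Mean of the 10 genes relative to the mean over libraries (log2, vertical axis) by Spearman's rho over genes between transcript length and value (horizontal axis), 1 point per library with the 2 libraries of a group joined. Control lies at the upper right, Pam3CSK4 1 h replicate 1 at the lower left, and each line rises to the right.

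The time points and ligands were compared within the treated libraries. These libraries also took part in the ranking, and a choice of genes low at 1 h bears on the sign of a later rise. Among the 8 largest falls at 1 h were 7 of the 10 genes with AmTARS and 7 with Pam3CSK4. Clcn5, Xrn1 and Xylt1 were not among the 8 largest falls with Pam3CSK4 at 1 h, and Lmbrd2, Mgat5 and Xylt1 were not with AmTARS at 1 h. From 1 h to 3 h of Pam3CSK4, 6 of the 10 genes were called higher (16.2% of all genes were). These 6 had both 3 h libraries above both 1 h libraries, as did 30% of all genes. Cbl stood higher by 0.79 (SE 0.13, adjusted p = 0.00011 by limma), Uhmk1 by 0.61 (SE 0.14) and Zbed6 by 0.52 (SE 0.14). Clcn5 stood higher by 0.45 (SE 0.11), Xrn1 by 0.44 (SE 0.09) and Lmbrd2 by 0.42 (SE 0.14, adjusted p = 0.027 by limma). Uprt at 0.28, Pdpr at 0.26, Mgat5 at 0.20 and Xylt1 at -0.09 did not pass. Cbl, Zbed6, Lmbrd2 and Uhmk1 were among the 8 largest falls with Pam3CSK4 at 1 h, the libraries this change is measured from. Clcn5 and Xrn1 ranked 16 and 9 there. All 10 genes were chosen as the largest falls against control. The values and p-values of the 6 are thus a description and support no rise. Without Pam3CSK4 1 h replicate 1, the library lowest in rho, 2 genes passed, Cbl at 0.53 and Xrn1 at 0.39. After the length and GC correction 5 passed, all of the 6 but Lmbrd2 (16.9% of genes rose).

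From 1 h to 3 h of AmTARS only Clcn5 passed the threshold, at 0.42 (SE 0.11), where 1.81% of all genes rose. Clcn5 was among the 8 largest falls only with AmTARS at 1 h, the libraries this change is measured from, so the value is a description and supports no rise. Cbl at 0.34 (SE 0.13), Uhmk1 at 0.25 and Xrn1 at 0.24 followed, and Uprt stood at -0.04 and Xylt1 at -0.10. Both 3 h libraries were above both 1 h libraries for Cbl, Clcn5 and Xrn1, as for 23.1% of all genes. Leaving out AmTARS 1 h replicate 2 or 3, AmTARS 3 h replicate 3, or control replicate 2 or 3 gave 0 called genes. The difference between the ligands in the change over time was called for 0 of the 10 genes (9.2% of all genes in either direction), and at an unadjusted p under 0.05 for Cbl alone, at 0.45 (SE 0.19, adjusted p = 0.166 by limma). Leaving out AmTARS 3 h replicate 3, Pam3CSK4 1 h replicate 3 or Pam3CSK4 3 h replicate 3 gave 1 called gene each, Lmbrd2, Cbl and Zbed6. So the 6 against 1 genes passing do not show that the ligands differ.

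**Figure D5:**
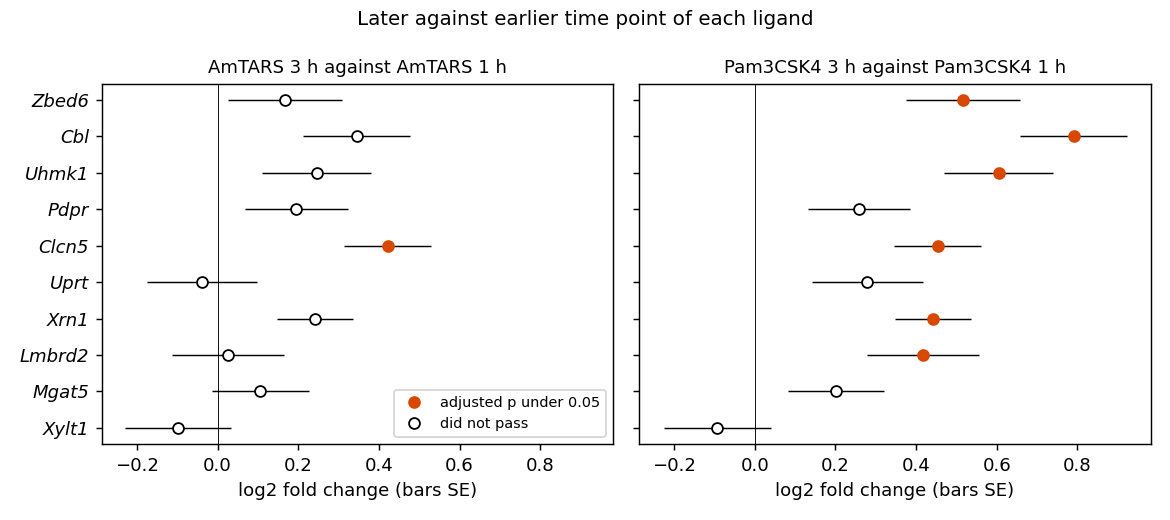
Log2 fold change from 1 h to 3 h (horizontal axis, bars SE) of each gene for AmTARS and Pam3CSK4, filled where the adjusted p was under 0.05 in limma. The genes were chosen as the largest falls against control, which bears on a later rise. With Pam3CSK4 Cbl, among the 8 largest falls there at 1 h, lies farthest right at 0.79, and Xylt1 is left of 0. With AmTARS only Clcn5, among the 8 largest falls there at 1 h, is filled.

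At 1 h the 10 genes were called for 0 differences between Pam3CSK4 and AmTARS (0.184% of all genes were called). The differences were -0.42 to 0.01, negative in 9 of 10, and 3 had an unadjusted p under 0.05, Lmbrd2 at -0.42 (SE 0.14), Uprt at -0.39 (SE 0.14) and Mgat5 at -0.25 (SE 0.12). Both Pam3CSK4 libraries lay below both AmTARS libraries for Zbed6, Uprt, Xrn1, Lmbrd2 and Mgat5, a share of 5 in 10 where 18.9% of all genes did so. Lmbrd2 and Mgat5 were among the 8 largest falls with Pam3CSK4 at 1 h and not with AmTARS at 1 h. For Clcn5 and Xrn1 it was the other way round. The choice thus bears on these signs, and no ligand difference is read from them. Over protein-coding genes rho of longest transcript with this difference was -0.32. With the replicate block the median of the 10 was 0.003 in place of -0.20. At 3 h the ligands were called for 0 of the 10 (17.1% of all genes were called), with 0 at an unadjusted p under 0.05. Those differences ran from -0.19 to 0.20, 5 in each direction, with SE of 0.09 to 0.14. With the replicate block all 10 were negative, from -0.41 to -0.006, and Mgat5 at -0.39 and Xylt1 at -0.41 were called. Without Pam3CSK4 3 h replicate 3, Zbed6 passed at 0.49. Missing the threshold does not show that the ligands act alike.

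Genes around each of the 10 were taken from lists written by role. Over all genes tested, 19.8%, 17.9%, 24.8% and 24.2% fell and 18.9%, 18.8%, 23.9% and 24.7% rose with AmTARS at 1 h and 3 h and Pam3CSK4 at 1 h and 3 h. After the length and GC correction 12.9%, 12.5%, 17.2% and 22.3% fell and 11.2%, 13.4%, 16.2% and 22.9% rose, and values for 4 groups below keep this order. Of 41 genes of mRNA decapping, deadenylation and decay, the machinery in which Xrn1 acts, 14 fell and 8 rose with AmTARS at 1 h, and 19 fell and 9 rose with Pam3CSK4 at 1 h. Their median was -0.13 and -0.16, beside -0.00 over all genes in both. After the length and GC correction 9 and 9 fell and 5 and 8 rose. Cnot1, the scaffold of the CCR4-NOT deadenylase and a transcript of 8390 nt, fell by 0.49 and 0.52 (SE 0.06), and by 0.18 and 0.17 after the correction. Lsm4, a subunit of the decapping activator ring with a transcript of 925 nt, rose by 0.36 and 0.49 (SE 0.07). After the correction it was at 0.12 (adjusted p = 0.221 by limma) and 0.19. Btg1, which binds the deadenylase, rose by 0.64 (SE 0.05) with Pam3CSK4 at 3 h and by 0.72 after the correction. In the same group 13 fell and 6 rose, and with AmTARS at 3 h 14 and 5. After the correction 5 and 4 fell at 3 h of Pam3CSK4 and AmTARS, and 5 and 4 rose.

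Of 28 tested genes of the Cbl family, its adaptors and substrates, 14 fell and 1 rose with AmTARS at 1 h, 9 and 3 at 3 h, 16 and 1 with Pam3CSK4 at 1 h, and 9 and 10 at 3 h. After the correction 10, 8, 10 and 6 fell and 1, 6, 1 and 11 rose. Cblb, the closest relative of Cbl, fell by 0.28, 0.32, 0.22 and 0.47 (SE 0.06) from 41.5 CPM in control, beside -1.09, -0.74, -1.34 and -0.55 for Cbl. Met, a receptor tyrosine kinase that Cbl ubiquitinates, fell by 0.37 and 0.38 (SE 0.07) at 1 h of AmTARS and Pam3CSK4, and rose by 0.64 with Pam3CSK4 at 3 h.

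Of 34 tested genes of N-glycan branching and glycosaminoglycan synthesis, 11 fell and 6 rose with AmTARS at 1 h, 11 and 6 at 3 h, 16 and 5 with Pam3CSK4 at 1 h, and 12 and 6 at 3 h. After the correction 7, 6, 9 and 12 fell and 4, 4, 5 and 9 rose. Ndst1, a heparan sulphate sulphotransferase, fell by 0.53, 0.48, 0.66 and 0.87 (SE 0.08), from 76.5 and 72.5 CPM in control to 44.3 and 36.8 CPM with Pam3CSK4 for 3 h, and by 0.81 in that group after the correction. Man2a2, a Golgi mannosidase upstream of Mgat5, fell by 0.40, 0.55, 0.45 and 0.80 (SE 0.06). St6gal1, a sialyltransferase, fell by 0.57 (SE 0.07) with Pam3CSK4 at 3 h.

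The pyruvate dehydrogenase list of 15 genes, around Pdpr, had 0 to 3 genes lower and 2 or 3 higher per treated group, and 0 to 2 lower and 1 to 5 higher after the correction. Pdp1, the catalytic subunit of the phosphatase that Pdpr regulates, stood at -0.10 with AmTARS at 1 h (adjusted p = 0.327 by limma) and fell by 0.72 (SE 0.08) with Pam3CSK4 at 3 h. Pdp2, the other catalytic subunit, fell by 0.46 (SE 0.12) with Pam3CSK4 at 1 h, and stood at -0.17 after the correction (adjusted p = 0.23 by limma). Mpc2, a subunit of the mitochondrial pyruvate carrier, rose by 0.34, 0.28, 0.38 and 0.26 (SE 0.07) in the 4 groups.

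Of 14 tested genes of CLC exchangers and endosomal acidification, 7 fell and 2 rose with AmTARS at 1 h, 3 and 1 at 3 h, 8 and 2 with Pam3CSK4 at 1 h, and 5 and 1 at 3 h. After the correction 3, 5, 4 and 4 fell and 1, 1, 1 and 2 rose. Clcn3, an exchanger close to Clcn5, fell by 0.32, 0.32, 0.36 and 0.27 (SE 0.06), less than Clcn5 in each group. Clcn6, a late endosomal exchanger, fell by 0.56 and 0.49 (SE 0.11) at 1 h of AmTARS and Pam3CSK4 and stood at -0.16 and -0.24 at 3 h. Tpcn1, an endolysosomal cation channel, fell by 0.78 (SE 0.07) with Pam3CSK4 at 3 h.

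Of 20 tested genes of pyrimidine salvage and synthesis, around Uprt, 5 rose and 2 fell with AmTARS at 1 h, 6 and 1 at 3 h, 6 and 4 with Pam3CSK4 at 1 h, and 7 and 6 at 3 h. After the correction 3, 2, 3 and 4 rose and 3, 2, 3 and 6 fell. Upp1, a uridine phosphorylase that forms the uracil used in salvage, rose from 5.54 and 5.61 CPM in control to 15.2 and 20.9 CPM with Pam3CSK4 for 3 h, by 1.52 (SE 0.11). Slc29a3, a lysosomal nucleoside transporter, fell by 0.44, 0.46, 0.48 and 0.95 (SE 0.07).

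Among the smaller lists, 0 of 7 genes related to Lmbrd2 fell in any of the 4 groups, and 4 rose with Pam3CSK4 at 1 h, such as Lmbr1l, a paralogue, at 0.32 (SE 0.08). After the correction 1 of the 7 was lower and 3 were higher with Pam3CSK4 at 1 h. Of 11 splicing factors and substrates around Uhmk1, 4 rose and 1 fell with AmTARS at 1 h and 6 rose and 1 fell with Pam3CSK4 at 3 h, such as U2af1, a subunit of the splicing factor that recognises 3′ splice sites, at 0.40 (SE 0.06). After the correction 2 rose and 1 fell in the former and 7 rose and 1 fell in the latter. Around Zbed6, Igf2r, the receptor that clears IGF2 and a transcript of 8887 nt, fell by 0.39, 0.31, 0.43 and 0.31 (SE 0.06), with -0.09 left by the correction for AmTARS at 1 h (adjusted p = 0.123 by limma). Of 9 tested RNAs listed as nuclear-retained, among them messenger RNAs such as Son, Ankrd11 and Nktr, 6, 6, 4 and 6 fell and 0 rose. Corrected for length and GC, 5, 5, 5 and 4 fell, and 1 rose with Pam3CSK4 at 1 h. The summed level of this list was 1542 to 1567 CPM in control and 1164 to 1419 CPM in the treated libraries. The part of nuclear RNA in the falls of the 10 genes was not tested. Over all lists 57 genes fell with AmTARS at 1 h, 50 at 3 h, 73 with Pam3CSK4 at 1 h and 56 at 3 h. Without AmTARS 1 h replicate 2 the first count was 37, and without AmTARS 3 h replicate 1, control replicate 2 or control replicate 3 the second was 24, 28 and 31. Without Pam3CSK4 1 h replicate 1 the third was 48, and without control replicate 2 or Pam3CSK4 3 h replicate 3 the fourth was 35 and 36. Rises numbered 28, 28, 35 and 41. The first count of rises was 15 and 18 without control replicate 2 and 3, and the second was 12 and 17 without AmTARS 3 h replicate 1 and control replicate 2.

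The 10 genes varied together over the 10 libraries. They were chosen as falls against control, which by itself raises their correlation over all libraries and shapes the mean used below. Pearson's r over libraries, which share the same control, ran from 0.75 for Clcn5 with Xylt1 to 0.99, with a median of 0.94 over 45 pairs, given as a description. The genes whose pattern was most like the mean of the 10, among 9371 other genes with a mean of 5 CPM, were Kmt2e (r = 0.995), Itsn2, Tjp1, Atp13a3, Ern1 and Ncor1 (r = 0.991). Their longest transcripts were 6080 to 9037 nt. Their falls were smaller than the medians of the 10, for Kmt2e -0.66, -0.54, -0.74 and -0.52, from 58.6 CPM in control. Over all genes compared, 624 (6.66%) had an r of at least 0.9.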

How the data were processed

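Stranded poly-A libraries of the 10 samples were mapped to mm10 by STAR 2.5.1, and R 3.3.0 is also named, per the submitters' processing notes. How reads were counted, with which annotation and which scaling, is not given in the sources used here. Deposited by the authors is a single table with log2(CPM + 1) for 11617 genes. All values were whole reads within 0.1 read once 1 factor per library was undone. Differences were estimated by limma 3.58.1 (R 4.3.3) from the deposited log2 values, using all 10 libraries, a mean for each group and a variance prior that follows the level. The 11407 genes averaging 1 CPM or more entered. Benjamini-Hochberg adjustment ran within a contrast, and an adjusted p below 0.05 is a call. Residual degrees of freedom were 5 (prior 14.7). ± gives the SD over 2 libraries.

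Annotation came from GENCODE M21 (11198 genes matched by symbol, 357 by RefSeq synonym, 24 to several genes and 38 to none). Promoters came from RefSeq. The correction removed natural splines (5 degrees of freedom each) of log2 length and GC content from each library. The 10 genes and all gene lists were chosen with earlier results of these data known. Named are the 10 genes, the genes at ranks 8 and 9, neighbours that overlap them, in each list up to 3 called genes of largest change, and the 6 most alike. 1 gene that this rule names is not reported here. Markers of macrophages, neutrophils, dendritic cells, lymphocytes, erythroid and stromal cells were checked; mitochondrially encoded genes were not analysed here. On simulated data for AmTARS at 1 h (11407 genes) the fit recovered 36% of genes changed 1.25-fold, 96% at 1.5-fold, 94% at 2-fold and 100% at 4-fold, with 13 false calls. That simulation held independent noise and no length trend, so its rates need not hold for these libraries. With a simulated length trend (11346 genes) 1657 unchanged genes were called before and 14 after the correction. The simulated trend was the same in both AmTARS 1 h libraries, where rho was -0.31 and -0.20 in the data. How well the correction works on these libraries is thus not shown. Alternatives were other filters, pseudocounts and scalings, voom on the recovered reads, a replicate block, leaving out each library, and, added after seeing the data, the longest transcript and a crossed block.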

Additional observations from a re-analysis of the deposited data

Results flagged for a closer look

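For 4 of the genes reported by name from the lists around the 10, the change from 1 h to 3 h differed between the ligands by the test of the difference itself in limma, Pam3CSK4 minus AmTARS. Over all genes tested 9.2% were called for this difference. The named genes were chosen for large changes against control in the same treated libraries, so the count of 4 is a description. Upp1 differed by 1.05 (SE 0.15, adjusted p = 9.3e-05), with a change of 0.26 for AmTARS and 1.31 for Pam3CSK4. Met differed by 0.67 (SE 0.10, adjusted p = 0.000115), at 0.35 and 1.02. Tpcn1 differed by -0.48 (SE 0.10, adjusted p = 0.00363), at -0.06 and -0.55, and Slc29a3 by -0.45 (SE 0.10, adjusted p = 0.00663), at -0.02 and -0.47. The doses of the ligands cannot be related, so a difference of ligand and one of dose cannot be told apart.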

How the results depend on the processing

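Against control, all 10 genes were called lower in each group without a filter, with other pseudocounts, quantile or median scaling, voom, either correction, the replicate block and each library left out. With a mean of at least 5 CPM only 6 of the 10 entered, and 6 were called in each group. With the correction and the block together 9 were called for AmTARS at 3 h, Uhmk1 missing at -0.31. With AmTARS at 1 h the difference from the length decile was -0.73 by longest transcript.

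Same-numbered libraries correlated at -0.206 to 0.204 in their deviations from group means. With 2 libraries per group these deviations mirror each other, so whether the numbers pair samples cannot be decided. With the replicate block 3 genes were called from 1 h to 3 h of AmTARS, 3 for Pam3CSK4, and 2 between the ligands at 3 h. With the block and the correction these were 3, 1 and 2. Crossing the numbers of AmTARS at 1 h in the block gave 3, 5 (among them Xylt1, as a fall) and 2, and 5042 genes in all for AmTARS at 1 h against control, beside 4600 uncrossed and 4415 without a block. Over all genes the block gave 2017 calls for AmTARS at 3 h against control in place of 4186, and 672 in place of 1049 for the difference between ligands over time, and the crossed block gave 2712 for the former and 657 in place of 271 for AmTARS over time. The correction gave 2728 calls for AmTARS at 1 h against control, and by longest transcript 1855, with 2319 for AmTARS at 3 h, 3020 in place of 5556 for Pam3CSK4 at 1 h and 447 for AmTARS over time. The correction with the block gave 2897, 1281 and 2146 against control for AmTARS at 1 h and 3 h and Pam3CSK4 at 1 h. Leaving out 1 library moved the calls over all genes to as few as 2603 (AmTARS 1 h, without control replicate 2), 1997 (AmTARS 3 h, without its replicate 1), 89 (AmTARS over time, without AmTARS 3 h replicate 3), 2381 in place of 3597 (Pam3CSK4 over time, without Pam3CSK4 1 h replicate 1), 1141 in place of 1953 (ligands at 3 h, without Pam3CSK4 3 h replicate 3) and 675 (difference over time, without AmTARS 3 h replicate 1). It gave up to 34 in place of 21 for the ligands at 1 h. From 1 h to 3 h of AmTARS, voom and the filter of 5 CPM called 0. Leaving out 1 library gave 0 to 1 genes for AmTARS over time, 2 to 7 for Pam3CSK4 over time, 0 to 1 between the ligands at 3 h and 0 to 1 for the difference over time. Between the ligands at 1 h the count was 0 in each of these settings. No called value reversed in sign. Where a count moved, the cause was not tested, except that the filter of 5 CPM left 6 of the 10 genes to test. For genes of the lists, the correction gave 17 rises for AmTARS at 1 h, 31 falls for AmTARS at 3 h and 45 falls for Pam3CSK4 at 1 h. The lowest count behind a level was 46 reads.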
